A study of Mus musculus with 45 samples.

Results

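The left ventricle (LV) of the mouse heart at E12.5, a stage counted in embryonic days, was set against the right ventricle (RV) of the same stage, on 3 arrays each, across all 18145 genes that could be named. These are 6 of the 45 arrays of a time course of mouse heart development. The tissue came from embryos of timed matings of wild type CD1 mice, staged by morphology and somite number, and both ventricles were dissected free without any treatment. Each E12.5 sample pooled tissue of 10 to 20 hearts, so an array averages over many embryos. The other groups, used to estimate the spread of a gene and to set other stages beside E12.5, were left and right ventricles at E9.5, E14.5, E18.5, 3 days after birth and in the adult, and R1 embryonic stem cells, E7.5 whole embryos and E8.5 heart tubes. The arrays were Affymetrix whole-genome mouse expression chips, and their values are log2 expression levels per probe set, made with RMA. A difference is always the LV level minus the RV level on that log2 scale, so 1 is a 2-fold higher level in LV and -1 a 2-fold lower one. A gene is called when its Benjamini-Hochberg adjusted p in limma was under 0.05 (two-sided). The SE beside a difference comes from that fit, which takes 1 spread per gene from all 15 groups, while an SD is that of the 3 arrays named. The number of arrays limits the precision.

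The ventricles differ in origin. Myocardium of the left ventricle is laid down largely by the first heart field, whereas the right ventricle and the outflow tract above it are added by the second heart field, whose progenitors express Isl1. The T-box factor Tbx5 and the basic helix-loop-helix factor Hand1 mark the left chamber in the mouse embryo, and Tbx5 acts with Nkx2-5 on the promoters of Nppa, which encodes atrial natriuretic peptide, and Gja5, which encodes the gap junction protein connexin 40. By E12.5 the cushions of the outflow tract and of the atrioventricular canal have filled with mesenchyme that goes on to build valves and septa.

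The promoters of these chamber markers are shown because Tbx5, Nkx2-5, Nppa and Gja5 are compared between the ventricles in what follows. Each is a 300-base RefSeq window that ends 50 bases after the gene's start (GRCm38.p6, plus strand), with Nppa at chr4:148000472-148000771 and Gja5 at chr3:97032152-97032451. Capitals mark TCACAC, the core of a T-box half-site, and AAGTG, the core of an NKX2-5 site, searched on both strands.
Nppa: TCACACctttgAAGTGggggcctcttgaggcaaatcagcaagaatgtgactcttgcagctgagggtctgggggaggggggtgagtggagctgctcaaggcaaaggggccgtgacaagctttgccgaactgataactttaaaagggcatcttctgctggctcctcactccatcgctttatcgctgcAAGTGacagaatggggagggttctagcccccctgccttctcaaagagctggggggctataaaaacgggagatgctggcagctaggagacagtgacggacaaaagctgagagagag
Gja5: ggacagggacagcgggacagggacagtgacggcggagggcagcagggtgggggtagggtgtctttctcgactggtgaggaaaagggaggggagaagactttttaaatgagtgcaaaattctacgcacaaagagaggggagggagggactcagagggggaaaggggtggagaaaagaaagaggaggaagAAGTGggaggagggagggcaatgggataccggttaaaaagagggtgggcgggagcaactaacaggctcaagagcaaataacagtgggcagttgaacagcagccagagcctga
The Nppa window held 1 TCACAC, at its very start, and 2 AAGTG. The Gja5 window held 0 TCACAC and 1 AAGTG. Of 32851 mouse promoter windows of this length, 4760 held TCACAC and 46.4% held AAGTG on either strand, so the matches describe these letters and no binding.

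At E12.5 the left and right ventricle differed in 230 of 18145 genes (1.27%), and most of these genes were higher in RV. LV was higher for 63 genes (0.347% of those tested) and lower for 167 (0.92%). The median difference of the called genes was 1.61-fold among those higher in LV and 1.87-fold among those higher in RV, and 17 and 69 of them differed at least 2-fold. Unadjusted, p was under 0.05 for 1456 genes (8.02%), the share against which unadjusted counts of a list are to be read. The 3 LV arrays did not overlap the 3 RV arrays for 63 of the 63 genes higher in LV and for 166 of the 167 higher in RV, against 10.1% and 10.8% of all genes (20.9% in either direction). The exception was Shox2, a homeobox gene of the sinus node, with 5.64, 7.45 and 6.04 in LV and 7.43, 7.56 and 8.27 in RV (difference -1.38 ± 0.36 SE, adjusted p = 0.0402), and its call was lost without any single array except LV replicate 2 (adjusted p of up to 0.486, without LV replicate 1). At the whole-array level the ventricles were close, since the group means correlated at 0.997 across genes, which are not independent replicates.

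**Figure D1:**
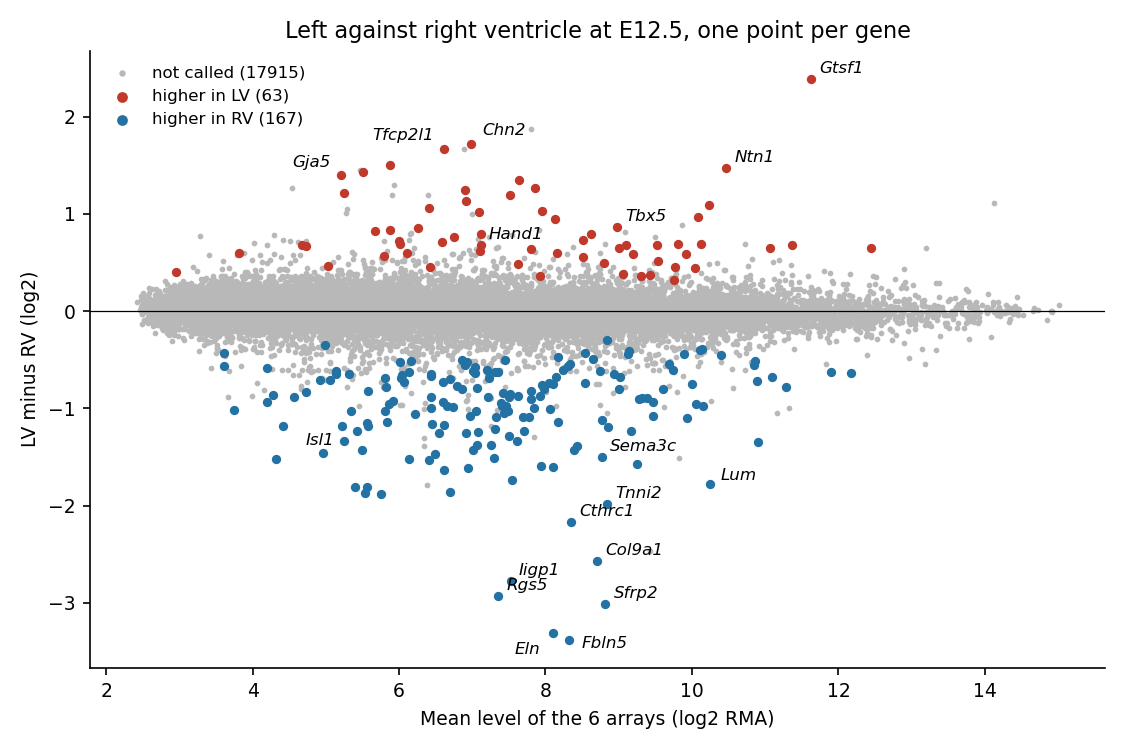
Each point is 1 of 18145 genes, with the mean level of the 6 E12.5 arrays on the horizontal axis (log2 RMA) and the LV minus RV difference on the vertical axis (log2). Coloured points are the 63 genes called higher in LV and the 167 called higher in RV, and the largest differences lie below 0, at -3.38 for Fbln5 and -3.31 for Eln.

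One LV array weighed on these counts. Without LV replicate 1 the fit called 35 genes higher in LV and 94 higher in RV, and without any other single array 42 to 48 and 111 to 124. LV replicate 1 was the lowest of the LV arrays in the mean level of cushion and valve mesenchyme markers, with 7.4, 7.72 and 7.89 over the 3 LV arrays and 8.73, 8.66 and 8.68 over the 3 RV arrays. At E12.5, no array stood more than 1.5 log2 units above its replicates in the mean of any cell type list.

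Both groups carried markers of ventricular muscle. Myl2, the ventricular regulatory light chain of myosin, stood at 14.90, 14.88 and 14.93 in LV and at 14.91, 14.92 and 14.92 in RV (difference -0.01 ± 0.07 SE, adjusted p = 0.999). Irx4, a homeobox factor of ventricular muscle, had 9.13, 9.36 and 9.27 in LV and 9.25, 9.24 and 9.08 in RV (0.06 ± 0.25 SE, adjusted p = 0.999). For both genes the arrays of the ventricles overlapped. Myl2 lies so near the top of the scale, whose highest value over all arrays and probe sets was 15.183, that a difference could be compressed there.

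The genes known to mark the left chamber did separate the ventricles. Hand1 had 7.53, 7.44 and 7.4 in LV against 6.88, 6.74 and 6.71 in RV, a 1.6-fold higher level in LV (0.68 ± 0.13 SE, adjusted p = 0.0013). Tbx5 had 9.51, 9.3 and 9.41 in LV and 8.54, 8.69 and 8.41 in RV, a 1.82-fold higher level (0.86 ± 0.13 SE, adjusted p = 9.05e-05). For both factors the lowest LV array lay above the highest RV array by more than the spread within either group. Of 2 probe sets each, 1 was called for Hand1 and 2 for Tbx5. Gja5, shown above with its promoter, had 5.84, 6.01 and 5.87 in LV and 4.9, 4.34 and 4.28 in RV (1.4 ± 0.19 SE, adjusted p = 9.18e-06), and RV replicate 1 lay above the other RV arrays. Gja5 was dim, since its RV levels lay below the array medians of 5.353 to 5.467 and its LV levels not far above them.

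Nppa was higher in every LV array but was not called. It had 14.70, 14.69 and 14.66 in LV against 13.81, 13.74 and 13.16 in RV, with a mean of 14.68 ± 0.02 in LV and 13.57 ± 0.35 in RV (SD, n = 3 each). The LV arrays lie near the top of the scale. The difference of 1.11 ± 0.49 SE missed the threshold with the spread shared over all stages (adjusted p = 0.51) and passed it when only the 6 E12.5 arrays were fitted (adjusted p = 0.00445). Nppb, the gene of the B-type natriuretic peptide, had 12.62, 12.54 and 12.79 in LV and 12.24, 12.12 and 12.51 in RV (0.36 ± 0.41 SE, adjusted p = 0.97). Nkx2-5, the homeobox factor at the core of the cardiac programme, had 9.84, 9.67 and 9.69 in LV and 9.47, 9.44 and 9.49 in RV (0.27 ± 0.13 SE, adjusted p = 0.588). In both genes all LV arrays were above all RV arrays, but neither difference was called with its SE from the fit of all groups.

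Of 10 measured genes listed for the left ventricle and first heart field, 3 were called higher in LV (Gja5, Tbx5 and Hand1) and 1 higher in RV, with a median difference of 0.51 against 0.0057 over all genes. The exception, Pcsk6, encodes a proprotein convertase that cleaves Nodal and other precursors. It had 6.42, 6.89 and 6.82 in LV and 7.87, 8.02 and 7.87 in RV (-1.21 ± 0.17 SE, adjusted p = 1.86e-05), without overlap. Cited1, a transcriptional co-regulator, had 13.43, 13.59 and 13.53 in LV and 12.77, 12.82 and 13.00 in RV and was not called (adjusted p = 0.0806).

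On the other side stood Isl1 and Sema3c. Isl1, the LIM-homeobox factor of second heart field progenitors, was dim in LV at 4.58, 4.85 and 4.33, against 6.07, 5.74 and 5.96 in RV (-1.34 ± 0.18 SE, adjusted p = 1.12e-05). Sema3c, a semaphorin of the outflow tract that guides neural crest cells, had 7.83, 8.05 and 8.18 in LV and 9.4, 9.67 and 9.5 in RV (-1.5 ± 0.17 SE, adjusted p = 3.98e-07). Neither gene's groups overlapped.

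Hand2, which in the mouse is needed for the right ventricle, was expressed in both chambers. It had 10.93, 10.98 and 10.99 in LV and 11.29, 11.31 and 11.25 in RV, a difference of -0.32 ± 0.13 SE (adjusted p = 0.408, or 0.0414 from the 6 E12.5 arrays). Tbx20, a T-box factor of chamber muscle, had 11.68, 11.89 and 11.81 in LV and 11.997, 12.09 and 11.89 in RV (-0.2 ± 0.15 SE, adjusted p = 0.891). All LV arrays lay below all RV arrays for Hand2, and for Tbx20 the highest LV and lowest RV arrays lay side by side.

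Of 23 genes listed for the right ventricle, second heart field and outflow tract, 4 were called higher in RV (Rspo3, Sema3c, Isl1 and Bmp4), 1 higher in LV (Plxna2) and 18 were not called, with a median of -0.09. Rspo3, a secreted enhancer of Wnt signals, had 6.69, 7.22 and 7.52 in LV and 8.47, 8.88 and 8.87 in RV (-1.6 ± 0.21 SE, adjusted p = 5.94e-06). Plxna2, a plexin that receives semaphorin signals, had 8.3, 8.05 and 8.01 in LV and 7.65, 7.59 and 7.21 in RV (0.63 ± 0.16 SE, adjusted p = 0.0318), a call lost without any single array except RV replicate 1 (adjusted p of up to 0.328, without RV replicate 3). Of the 4 Plxna2 probe sets 1 was called. The list of 29 core cardiac transcription factors gave 2 higher in LV, 1 higher in RV and a median of 0.06.

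**Figure D2:**
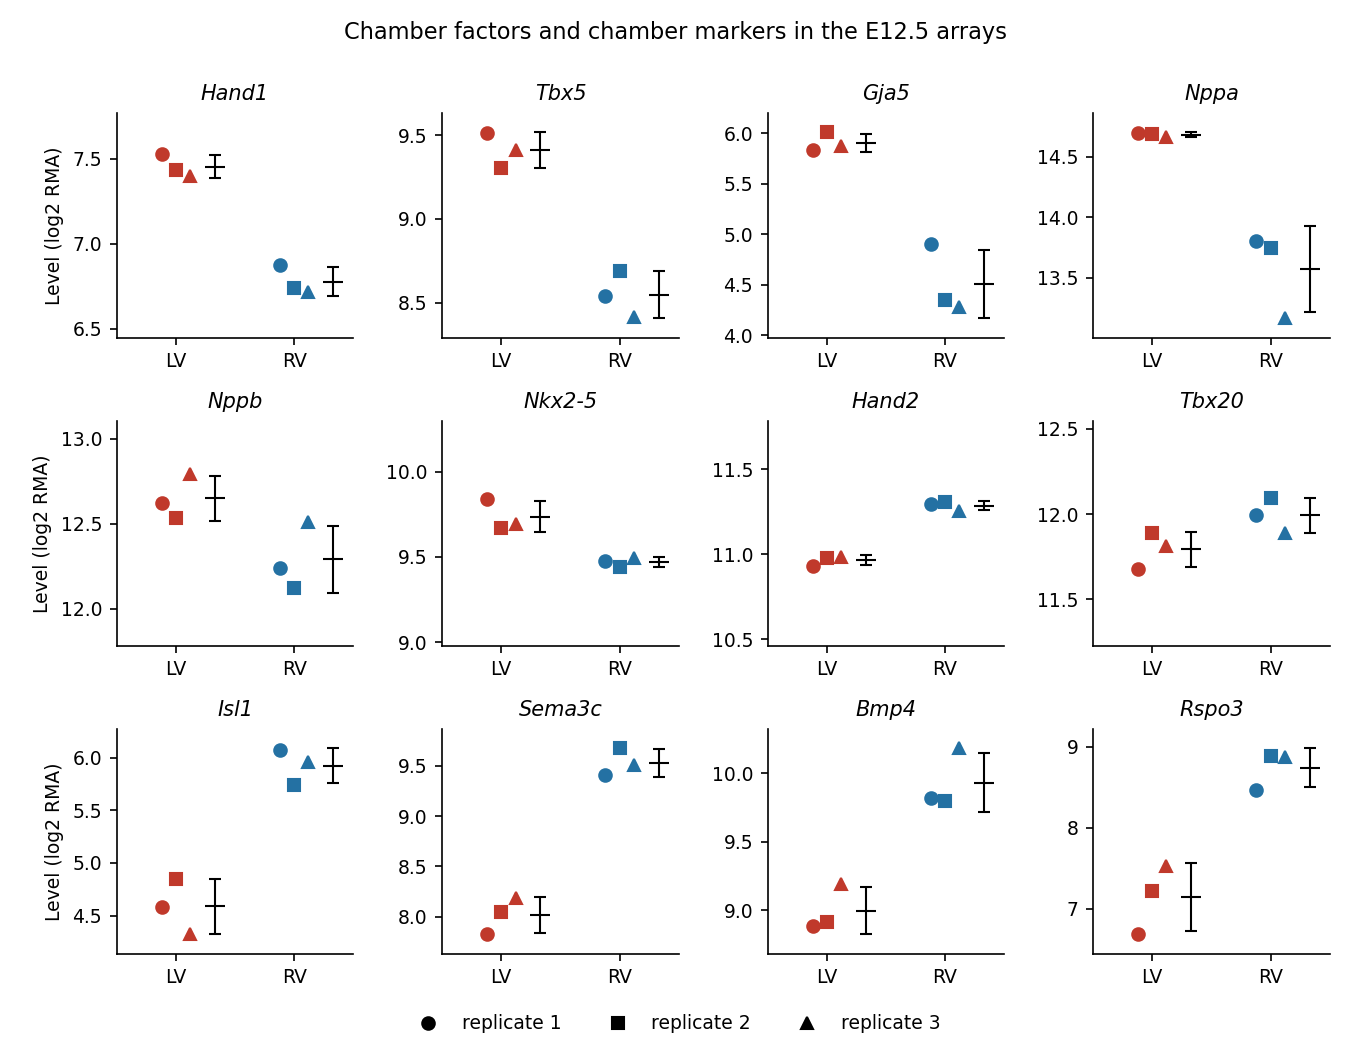
Level (log2 RMA) of 12 chamber factors and signals in each of the 3 LV and 3 RV arrays at E12.5, with symbols for replicate numbers and a bar for the mean ± SD. Hand1, Tbx5, Gja5 and Nppa lie higher in all LV arrays, Isl1, Sema3c, Bmp4 and Rspo3 higher in all RV arrays, and Hand2, Tbx20, Nppb and Nkx2-5 differ by less than 0.4. Each panel has its own vertical scale, which does not start at 0.

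The called gene with the largest difference in favour of LV was Gtsf1, a gene of the piRNA pathway known from germ cells. It had 12.81, 12.92 and 12.72 in LV and 10.31, 10.45 and 10.53 in RV, a 5.23-fold higher level in LV (2.39 ± 0.23 SE, adjusted p = 8.06e-09). Chn2, which encodes the Rac-inactivating protein beta2-chimaerin, followed among the called genes with 7.95, 7.69 and 7.91 in LV and 6.33, 5.87 and 6.18 in RV (1.72 ± 0.17 SE, adjusted p = 2.12e-08). Tfcp2l1, a transcription factor known from pluripotent cells and kidney ducts, had 7.59, 7.65 and 7.1 in LV and 6.0, 5.99 and 5.34 in RV (1.67 ± 0.22 SE, adjusted p = 4.83e-06). In each of these 3 genes the groups lay more than 1 log2 unit apart. The call held for 1 of 2 probe sets of Gtsf1, 2 of 2 of Chn2 and 1 of 3 of Tfcp2l1.

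Ntn1, the gene of the guidance protein netrin 1, had 11.08, 11.42 and 11.09 in LV and 9.66, 10.09 and 9.43 in RV (1.47 ± 0.22 SE, adjusted p = 3.97e-05). Sox3, an X-linked factor known from neural progenitors, had 8.82, 8.39 and 8.23 in LV and 7.04, 7.32 and 7.31 in RV (1.26 ± 0.2 SE, adjusted p = 0.000103). Spint2, a Kunitz-type inhibitor of serine proteases, had 10.97, 10.70 and 10.68 in LV and 9.83, 9.52 and 9.73 in RV (1.09 ± 0.16 SE, adjusted p = 2.97e-05). Of 2 probe sets each, 1 was called for Ntn1, 1 for Sox3 and 2 for Spint2. The absence of overlap between the chambers was part of the rule that chose these genes and the others with the largest called differences in either direction, so it only describes them.

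The other genes chosen for their called difference in favour of LV were of several kinds. Dclk3, a doublecortin-like kinase, differed by 1.43 ± 0.19 SE, and Arhgef4, a guanine nucleotide exchange factor, by 1.35 ± 0.16 SE. Art1, a membrane-anchored ADP-ribosyltransferase of muscle, differed by 1.24 ± 0.18 SE, and Adamdec1, a secreted metalloprotease, by 1.21 ± 0.18 SE. Nlrp10, of the NOD-like receptor family, differed by 1.13 ± 0.21 SE, and Lypd6b, of the Ly6 family, by 1.06 ± 0.24 SE. Their adjusted p ran from 1.08e-06 (Arhgef4) to 0.0136 (Lypd6b), and the call of Lypd6b was lost without 4 of the 6 arrays in turn, LV replicates 1 and 3 and RV replicates 2 and 3 (adjusted p of up to 0.0976).

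Tmem88b, a transmembrane protein gene, stood apart on the third arrays. It had 6.08, 6.04 and 7.76 in LV and 4.96, 4.76 and 5.66 in RV, so that the third array was the highest on both sides. The difference was 1.5 ± 0.3 SE (adjusted p = 0.00323), was 0.94 without LV replicate 3 (adjusted p = 0.108), and had an adjusted p of 0.00014 with the replicate number as a block.

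The largest differences of all were in elastic fibre genes, which were higher in RV. Fbln5, the gene of fibulin 5, which assembles elastic fibres, had 6.73, 6.7 and 6.45 in LV against 10.20, 9.99 and 9.84 in RV, a 10.4-fold difference (-3.38 ± 0.29 SE, adjusted p = 6.71e-10). Eln, which encodes tropoelastin, the substance of these fibres, had 6.24, 6.59 and 6.5 in LV and 10.00, 9.6 and 9.65 in RV, a 9.9-fold difference (-3.31 ± 0.38 SE, adjusted p = 3.98e-07). For both genes the groups stood over 3 log2 units apart with an SD of at most 0.22 in either. Each gene had 2 probe sets, of which 1 was called. Fbln2, the gene of fibulin 2, of the same family, had 8.78, 9.05 and 8.95 in LV and 10.08, 9.92 and 10.01 in RV (-1.08 ± 0.21 SE, adjusted p = 0.00213).

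Most other matrix genes were not called. Of 26 fibroblast and matrix markers, 0 were called higher in LV, 4 higher in RV (Eln, Lum, Tnc and Fbln2) and 22 were not called, with a median of -0.35. In the fits of the 6 E12.5 arrays alone, unpaired and paired, 10 and 11 passed higher in RV and 0 and 1 higher in LV. Lox, the enzyme that crosslinks elastin and collagen, had 8.34, 8.26 and 8.36 in LV and 9.25, 8.97 and 8.99 in RV and was not called (-0.75 ± 0.28 SE, adjusted p = 0.317). The major fibrillar collagen gene Col1a2 had 12.52, 12.71 and 12.498 in LV and 12.99, 12.87 and 12.77 in RV (-0.3 ± 0.23 SE, adjusted p = 0.89). Dcn, the gene of the proteoglycan decorin, and Sparc overlapped between the chambers, with differences of 0.07 and -0.01. Fbln1, a fibulin of the cushions, leaned the other way with 9.54, 9.48 and 9.34 in LV and 9.11, 9.15 and 9.09 in RV (adjusted p = 0.922).

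Tnc, the gene of the matrix protein tenascin C, had 5.56, 6.17 and 5.89 in LV and 7.57, 6.87 and 6.65 in RV (-1.16 ± 0.23 SE, adjusted p = 0.00232), and its call was lost without RV replicate 1 (-0.89, adjusted p = 0.0732). Aspn, the gene of the small proteoglycan asporin, had 4.62, 4.49 and 4.86 in LV and 7.32, 6.04 and 6.05 in RV (-1.81 ± 0.26 SE, adjusted p = 2.95e-05). In both genes RV replicate 1 stood above the other RV arrays.

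Markers of cushion and valve mesenchyme were higher in RV as a group. Of 22 measured, 12 were called higher in RV, 0 higher in LV and 10 were not called, and 21 of the 22 differences were negative, with a median of -0.87 against 0.0057 over all genes (where 0.92% were called higher in RV). Col9a1, a collagen chain of cartilage and cushions, had 6.78, 7.63 and 7.86 in LV and 10.01, 9.96 and 10.00 in RV (-2.57 ± 0.32 SE, adjusted p = 1.68e-06). Cthrc1, a secreted protein of remodelling matrix, had 6.67, 7.39 and 7.71 in LV and 9.66, 9.19 and 9.44 in RV (-2.17 ± 0.28 SE, adjusted p = 2.67e-06). The LV arrays spread over about 1 log2 unit in both genes, LV replicate 1 being the lowest, and none reached the RV arrays.

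Has2, the enzyme that makes the hyaluronan of cardiac jelly, had 5.14, 5.82 and 5.96 in LV and 7.0, 7.26 and 7.26 in RV (-1.53 ± 0.18 SE, adjusted p = 1.01e-06). Lum, the gene of the proteoglycan lumican, had 8.96, 9.51 and 9.6 in LV and 11.27, 11.05 and 11.09 in RV (-1.78 ± 0.38 SE, adjusted p = 0.00598, or 0.0809 without LV replicate 1). Prrx1, a homeobox factor of mesenchyme, had 5.65, 5.93 and 5.67 in LV and 7.66, 7.02 and 6.98 in RV (-1.47 ± 0.19 SE, adjusted p = 2.45e-06). The groups of all 3 genes were separate.

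Some transcription factors of the list, chosen after their values were seen, were also called lower in LV. Sox9, Twist1, Msx1, Msx2 and Scx were called with differences of -0.84, -1.09, -0.89, -0.61 and -0.66, and Tbx2 (-0.54, adjusted p = 0.216) and Snai2 (-0.63, adjusted p = 0.0691) were not. Nfatc1, the factor of valve endocardium, lay level, with 8.04, 7.99 and 8.14 in LV and 8.15, 8.07 and 7.95 in RV (adjusted p = 0.999). Postn, the gene of periostin, and Mgp, an inhibitor of calcification, had differences of -0.99 ± 0.57 SE and -1.51 ± 0.56 SE and groups that did not overlap, yet they were not called (adjusted p = 0.758 and 0.33). In a pooled piece of tissue, fewer cells of a type and less RNA per cell cannot be told apart.

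**Figure D3:**
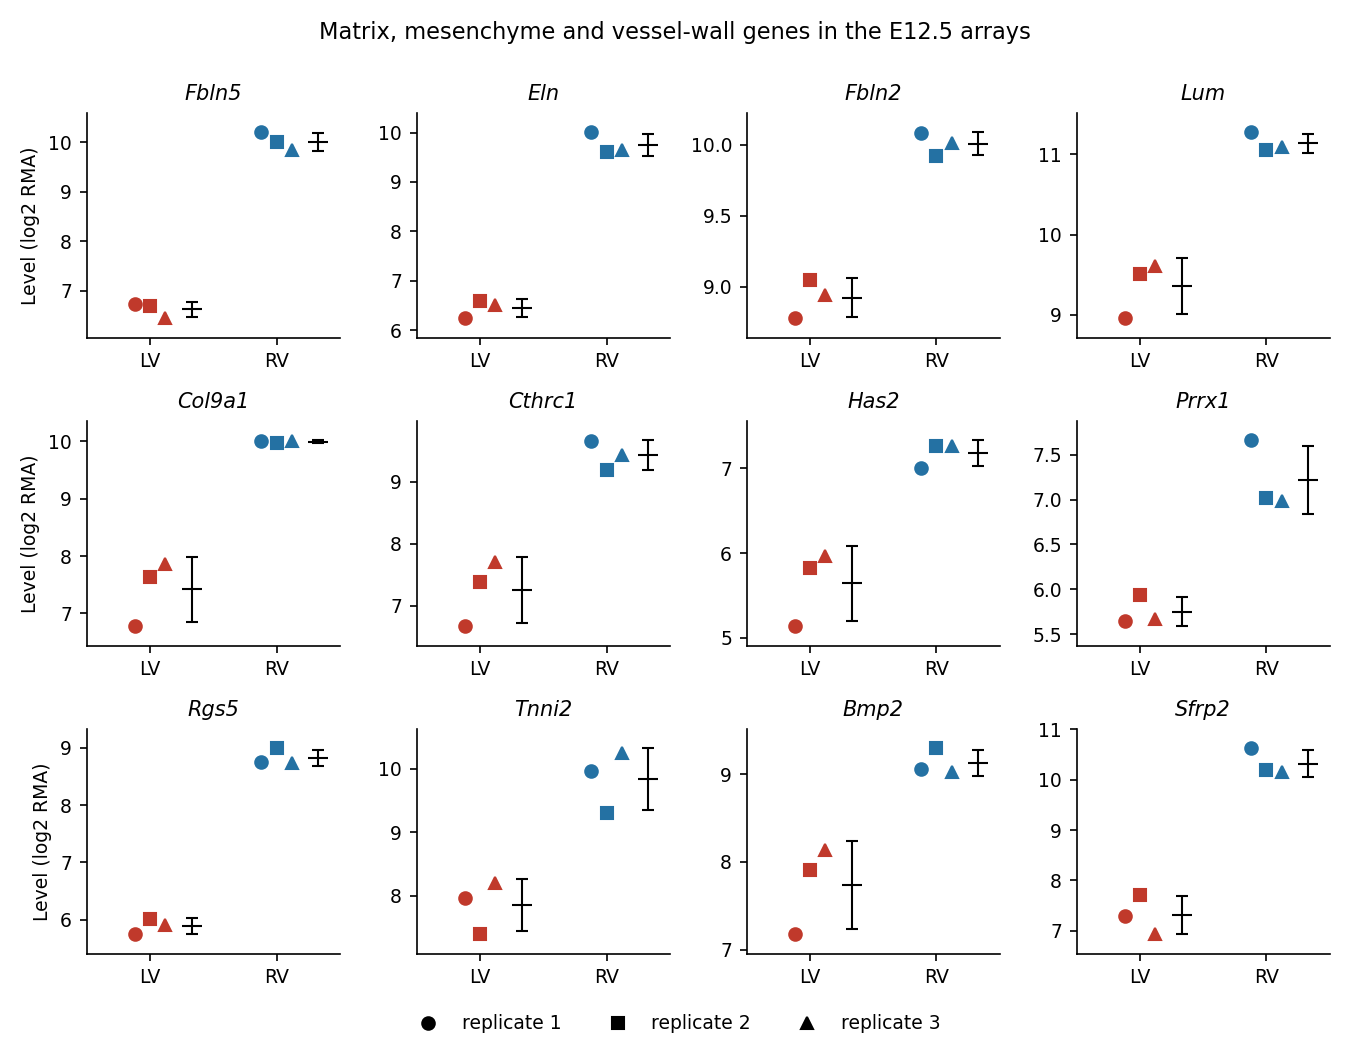
Level (log2 RMA) of 12 genes of elastic fibres, cushion mesenchyme, vessel wall and Wnt or BMP signalling in each of the 3 LV and 3 RV arrays at E12.5, with a bar for the mean ± SD. In every panel all LV arrays lie below all RV arrays, with means over 3 log2 units apart for Fbln5 and Eln. LV replicate 1 (circle) is the lowest LV array for all genes shown except Fbln5, Tnni2 and Sfrp2. Each panel has its own vertical scale, which does not start at 0.

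Among genes of smooth muscle and pericytes, the cells of vessel walls, 3 of 15 were called higher in RV and 0 higher in LV, with a median of -0.17. Rgs5, a regulator of G protein signalling used as a pericyte marker, had 5.75, 6.02 and 5.91 in LV and 8.75, 8.99 and 8.73 in RV, a 7.64-fold difference and the smallest adjusted p of any gene named (-2.93 ± 0.13 SE, adjusted p = 3.33e-18). All 4 of its probe sets were called the same way. The actin-binding protein gene Tagln had 10.36, 10.55 and 10.68 in LV and 11.21, 11.16 and 11.40 in RV (-0.72 ± 0.18 SE, adjusted p = 0.0341), a call lost without any single array (adjusted p of up to 0.266), and Actg2, an enteric-type smooth muscle actin, differed by -1.03 ± 0.22 SE (adjusted p = 0.00513, or 0.106 without LV replicate 1 and 0.0531 without RV replicate 2).

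The other pericyte genes of the list were not called. Cspg4 overlapped between the chambers (-0.155, adjusted p = 0.98), Pdgfrb differed by -0.53 (adjusted p = 0.455), and the channel genes Kcnj8 and Abcc9 differed by 0.55 (adjusted p = 0.383) and 0.18 (adjusted p = 0.973). Myh11, the myosin of mature smooth muscle, was dim on all arrays, with 4.19, 3.84 and 3.93 in LV and 4.21, 4.14 and 4.22 in RV.

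Further genes with large called differences in favour of RV were of mixed kinds. Iigp1, an interferon-inducible GTPase, had 5.89, 6.3 and 6.22 in LV and 8.92, 8.97 and 8.86 in RV, a 6.86-fold difference (-2.78 ± 0.22 SE, adjusted p = 1.34e-10), which both of its probe sets showed. Tnni2, the troponin I of fast skeletal muscle, also listed for trabecular muscle, had 7.96, 7.39 and 8.2 in LV and 9.96, 9.3 and 10.24 in RV (-1.98 ± 0.3 SE, adjusted p = 6.46e-05). The 3 Tnni2 differences of same-numbered arrays, -2.0, -1.91 and -2.04, were closer than the arrays of either chamber.

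Dcpp1, a secreted protein known from salivary glands, had 4.62, 4.68 and 5.15 in LV and 6.7, 6.32 and 7.07 in RV (-1.88 ± 0.25 SE, adjusted p = 6.3e-06), and its near-identical neighbouring genes make the identity of this signal uncertain. Stmn2, a stathmin of neurons, had 4.48, 4.87 and 4.44 in LV and 6.54, 6.39 and 6.48 in RV (-1.87 ± 0.23 SE, adjusted p = 1.68e-06). The other neural crest, Schwann and neuron markers gave no call, so 1 of 17 was called, with a median of 0.07. Nt5e, the ectonucleotidase CD73, which makes adenosine, had 5.61, 5.74 and 5.94 in LV and 7.63, 7.55 and 7.68 in RV (-1.86 ± 0.19 SE, adjusted p = 3.18e-08). Shisa2, of the Shisa family, differed by -1.74 ± 0.26 SE (adjusted p = 3.97e-05).

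Skeletal muscle and trunk markers did not move together. Of 20, 2 were called, both higher in RV. They were Tnni2 and Meox1, a homeobox factor of somites, with 6.59, 6.26 and 6.79 in LV and 8.24, 7.9 and 8.03 in RV (-1.51 ± 0.26 SE, adjusted p = 0.000333). The myogenic factor gene Myod1 was dim throughout, with 4.35, 4.32 and 3.77 in LV and 4.59, 4.2 and 3.97 in RV. The list's median was 0.0048, and its mean level per array was 5.78, 5.58 and 5.45 in LV and 5.94, 5.68 and 5.6 in RV.

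Wnt signalling relies on secreted ligands, Frizzled receptors and secreted inhibitors that hold the ligands off. Of 37 measured genes of the pathway, 5 were called higher in RV and 0 higher in LV, with a median of -0.11, and the 5 were inhibitors, an enhancer, a ligand and a receptor. Sfrp2, a secreted Frizzled-related protein, had 7.29, 7.7 and 6.94 in LV and 10.62, 10.20 and 10.15 in RV (-3.01 ± 0.56 SE, adjusted p = 0.00105). Wif1, a secreted inhibitor that binds Wnt ligands, had 4.46, 4.6 and 4.44 in LV and 6.48, 6.27 and 6.18 in RV (-1.81 ± 0.35 SE, adjusted p = 0.00195). In LV, Wif1 lay among the dim genes of the array.

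The remaining Wnt calls were Rspo3 (above), the ligand gene Wnt16 and the receptor gene Fzd1. Wnt16 had 4.69, 4.83 and 5.46 in LV and 6.22, 5.85 and 6.35 in RV (-1.15 ± 0.23 SE, adjusted p = 0.00295, or 0.0569 without LV replicate 1). Fzd1 had 9.55, 9.56 and 9.62 in LV and 10.56, 10.55 and 10.51 in RV (-0.96 ± 0.16 SE, adjusted p = 0.000145), with an SD of at most 0.04 in either chamber.

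Bone morphogenetic proteins signal through receptor kinases to Smad proteins and induce the Id genes. Of 38 genes of the BMP and TGF-beta pathways, 4 were called higher in RV and 0 higher in LV, with 29 of 38 differences negative and a median of -0.13. They were both ligand and target genes. Bmp2, a ligand that drives cushion formation, had 7.18, 7.9 and 8.14 in LV and 9.06, 9.29 and 9.03 in RV (-1.39 ± 0.23 SE, adjusted p = 0.000217). Bmp4, a ligand of the outflow tract, had 8.88, 8.91 and 9.2 in LV and 9.81, 9.8 and 10.18 in RV (-0.93 ± 0.14 SE, adjusted p = 3.14e-05).

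The target genes had smaller differences. Id3 had 10.62, 10.72 and 10.89 in LV and 11.38, 11.41 and 11.49 in RV (-0.68 ± 0.13 SE, adjusted p = 0.00116). Id1 had 9.32, 9.42 and 9.56 in LV and 10.00, 9.98 and 10.13 in RV (-0.61 ± 0.1 SE, adjusted p = 0.000281). No receptor gene of the list was called. The inhibitory Smad gene Smad6 missed the threshold with 9.35, 9.52 and 9.46 in LV and 9.88, 10.14 and 9.86 in RV (-0.52 ± 0.14 SE, adjusted p = 0.0535). Bmper, a secreted modulator of BMP signals chosen after its values were seen, had 6.59, 7.08 and 7.15 in LV and 8.18, 8.3 and 8.34 in RV (-1.34 ± 0.26 SE, adjusted p = 0.00165).

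Guidance genes were called on both sides. Of 30, 2 were higher in LV (Ntn1 and Plxna2) and 2 higher in RV (Sema3c and Robo1), with a median of 0.02. Robo1, a receptor for Slit proteins, had 8.05, 8.3 and 8.41 in LV and 9.65, 9.58 and 9.1 in RV (-1.19 ± 0.26 SE, adjusted p = 0.00864), and its call was lost without LV replicate 1 (adjusted p = 0.0851), RV replicate 1 (0.08) or RV replicate 2 (0.0608).

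Other signalling lists held 1 call or 0 each, while 1.27% of all genes were called. Of 31 FGF, neuregulin and IGF genes 1 was called, the receptor gene Fgfr2 with 6.9, 7.19 and 6.9 in LV and 7.68, 7.67 and 7.52 in RV (-0.63 ± 0.13 SE, adjusted p = 0.00522, or 0.0587 without LV replicate 1). Of 17 retinoic acid genes 1 was called, the binding protein gene Crabp1 with 5.99, 6.52 and 6.39 in LV and 7.92, 7.63 and 7.64 in RV (-1.43 ± 0.33 SE, adjusted p = 0.0136, or 0.136 without LV replicate 1 and 0.0906 without RV replicate 1). Of 19 Notch pathway genes 0 were called, with a median of -0.13. Unadjusted, 5 of them had p under 0.05, all higher in RV, against 8.02% of all genes in either direction. In a fit of the 6 E12.5 arrays alone, paired by replicate number, 3 passed, all higher in RV, against 2.88% of all genes.

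Genes of the contractile apparatus were compared as well. Of 31 sarcomere and Z-disc genes 1 was called, against 1.27% of all genes, with a median of 0.0073. Unadjusted, 5 had p under 0.05 (8.02% of all genes). In a fit of the 6 E12.5 arrays alone, paired by replicate number, 1 was higher in LV and 3 higher in RV (1.88% and 2.88% of all genes). The called gene was Tpm2, the gene of beta-tropomyosin, with 10.13, 10.19 and 10.19 in LV and 10.66, 10.64 and 10.57 in RV (-0.45 ± 0.11 SE, adjusted p = 0.0199). This call was lost without any single array except RV replicate 3 (adjusted p of up to 0.117, without LV replicate 1), and with the gene's most variable probe set the difference was 0.06. Acta1, the skeletal alpha-actin also made in the fetal heart, had 10.70, 10.67 and 10.52 in LV and 11.67, 11.75 and 11.62 in RV (-1.05 ± 0.36 SE, adjusted p = 0.218), without overlap and with an adjusted p of 0.000825 in the paired fit of the 6 arrays.

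Layers of the wall were also compared. Trabeculae are the inner muscle ridges, marked by Nppa and Gja5, while the compact layer lies outside and grows with Hey2 and Tbx20. Of 15 trabecular genes 1 was called higher in LV (Gja5) and 1 higher in RV (Tnni2), with a median of 0.17. Of 14 compact genes 0 were called higher in LV and 2 higher in RV (Tnc and Fgfr2), with a median of -0.14. Hey2, chosen after its values were seen, had 9.95, 10.03 and 10.13 in LV and 10.28, 10.22 and 10.24 in RV (-0.21 ± 0.15 SE, adjusted p = 0.862).

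Ion channel and calcium genes differed in a few members. Kcnd2, the Kv4.2 channel of the transient outward current, had 8.4, 8.19 and 7.74 in LV and 6.99, 7.17 and 6.6 in RV (1.2 ± 0.31 SE, adjusted p = 0.0406). Kcnk3, the background potassium channel TASK-1, had 9.45, 8.96 and 8.66 in LV and 8.39, 8.26 and 8.04 in RV (0.79 ± 0.19 SE, adjusted p = 0.0173). Kcnj12, the inward rectifier Kir2.2, went the other way with 6.2, 5.8 and 6.3 in LV and 6.8, 6.55 and 6.97 in RV (-0.67 ± 0.17 SE, adjusted p = 0.0351). These were the 3 calls among 19 potassium and sodium channel genes, and all 3 depended on single arrays. The call held for 1 of 4 probe sets of Kcnd2 and 1 of 3 of Kcnk3. Without 1 array the adjusted p was up to 0.294 for Kcnd2 (lost without every array but LV replicate 3), 0.31 for Kcnk3 (lost without LV replicate 1 or RV replicates 2 or 3) and 0.326 for Kcnj12 (lost without LV replicates 1 or 2 or RV replicates 1 or 3).

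The calsequestrins, which hold calcium in the sarcoplasmic reticulum, split between the chambers. Casq2, the cardiac form, had 11.33, 11.45 and 11.40 in LV and 10.68, 10.81 and 10.75 in RV (0.64 ± 0.12 SE, adjusted p = 0.00137). Casq1, the skeletal form, had 9.36, 9.29 and 9.52 in LV and 10.50, 10.36 and 10.60 in RV (-1.1 ± 0.28 SE, adjusted p = 0.0392). Both genes showed separate groups with an SD of at most 0.12, but the call of Casq1 was lost without any single array (adjusted p of up to 0.188) and with the replicate block (0.0515). The other 16 of 18 calcium handling genes were not called.

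Genes of energy metabolism and cell division are read beside the 1.27% of all genes called. In a list of this size, 0 calls lie near that share. Unadjusted, 8.02% of all genes had p under 0.05, and in the paired fit of the 6 arrays 1.88% passed higher in LV and 2.88% higher in RV. Of 36 genes of electron transport and ATP synthase, 16 of the tricarboxylic acid cycle and 26 of fatty acid use, 0 were called in limma, with medians of 0.02, 0.04 and 0.08, while 1, 2 and 2 had an unadjusted p under 0.05 and 0, 1 and 2 passed in the paired fit of the 6 arrays. Of 32 cell cycle and mitosis genes and 33 DNA replication genes 0 were called in either fit, with medians of -0.01 and 0.03, and 0 and 1 had an unadjusted p under 0.05. The mean level of the replication genes was 9.75, 9.8 and 9.76 on the LV arrays and 9.71, 9.79 and 9.74 on the RV arrays.

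Of 18 genes known to be induced by low oxygen, 2 were called higher in RV and 16 were not called. The differences were negative in 17 of them (94.4%, against 48.2% of all genes), with a median of -0.25. Egln3, an oxygen-sensing prolyl hydroxylase that is itself induced by low oxygen, had 7.4, 7.21 and 7.41 in LV and 8.34, 8.16 and 8.53 in RV (-1.0 ± 0.11 SE, adjusted p = 3.98e-07). Slc2a1, the glucose transporter GLUT1, had 11.75, 11.97 and 11.86 in LV and 12.45, 12.58 and 12.46 in RV (-0.64 ± 0.12 SE, adjusted p = 0.00152). Vegfa, a growth factor of vessels, had 7.77, 8.0 and 7.92 in LV and 8.15, 8.15 and 8.06 in RV and was not called (adjusted p = 0.805). The glycolysis genes gave 1 call in 20, Slc2a1 again, with a median of -0.05.

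Markers of endothelium and endocardium gave 2 calls in 25, both higher in RV, with a median of -0.07. Aplnr, the apelin receptor of venous and coronary progenitor cells, had 9.05, 8.77 and 8.67 in LV and 9.83, 9.62 and 9.75 in RV (-0.91 ± 0.21 SE, adjusted p = 0.0155), a call lost without LV replicates 2 or 3 or RV replicates 1 or 3 (adjusted p of up to 0.106). Sox17, an endothelial factor, had 6.15, 6.5 and 6.4 in LV and 7.02, 7.18 and 6.91 in RV (-0.69 ± 0.15 SE, adjusted p = 0.00522, or 0.0913 without LV replicate 1 and 0.0608 without RV replicate 2). Pan-endothelial Cdh5 and Kdr overlapped, at 0.02 and 0.0. Of 19 coronary, arterial and lymphatic markers, 1 was called higher in LV (Gja5) and 3 higher in RV (Cxcr4, Aplnr and Sox17). Cxcr4, a chemokine receptor, had 5.76, 5.71 and 5.62 in LV and 6.8, 6.82 and 6.65 in RV (-1.06 ± 0.2 SE, adjusted p = 0.00105).

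Other tissues that a dissected ventricle could carry were measured as well. The 20 epicardium, 25 leukocyte, 21 red cell and platelet, and 20 liver, foregut and lung markers gave 0 calls in limma, with medians of 0.02, 0.09, 0.16 and 0.27, and 1, 2, 4 and 3 had an unadjusted p under 0.05. In the paired fit of the 6 arrays, 1, 3, 4 and 7 of them passed higher in LV and 2, 0, 0 and 2 higher in RV. Of all genes, 1.88% and 2.88% passed in these directions. Liver markers averaged 5.3, 5.54 and 5.36 on the LV arrays and 4.86, 5.09 and 5.14 on the RV arrays. Albumin (Alb), chosen after its values were seen, had 7.58, 8.34 and 7.25 in LV and 5.54, 6.37 and 6.26 in RV (1.67 ± 0.82 SE, adjusted p = 0.619), so every LV array was above every RV array. Afp, the gene of alpha-fetoprotein, had 8.49, 9.21 and 8.53 in LV and 6.26, 7.27 and 7.07 in RV, a difference larger than that of Chn2 but not called (1.88 ± 0.91 SE, adjusted p = 0.606). Alb and Afp had an adjusted p of 0.00716 and 0.00134 in the paired fit. The part of such tissue in the genes higher in LV was not tested.

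Calls in the remaining lists are read beside the 1.27% of all genes called. Of 16 atrial muscle genes 1 was called higher in LV (Tbx5), of 14 conduction system genes 1 higher in LV (Gja5) and 1 higher in RV (Shox2), and of 6 left-right axis genes 1 higher in RV (Pcsk6). Unadjusted, 5 of the 16 atrial and 9 of the 14 conduction genes had p under 0.05, against 8.02% of all genes. In the paired fit of the 6 arrays, 2 and 2 of them passed higher in LV and 5 and 4 higher in RV. Of all genes, 1.88% and 2.88% passed there. Of 14 trophoblast and yolk sac markers 1 was called, Dcpp1. Of 23 immediate early genes, which respond to handling and stress, 1 was called, Ier3, with a difference of -0.68 ± 0.17 SE (adjusted p = 0.0355), lost without any single array except RV replicate 2 (adjusted p of up to 0.216). Of 21 homeobox cluster genes and 15 cell cycle inhibitor genes 0 were called in limma, while 4 and 3 had an unadjusted p under 0.05 and 1 and 2 passed in the paired fit of the 6 arrays. Of 15 heat shock, 20 ribosomal protein, 21 housekeeping and 4 sex-linked genes 0 were called and 0 had an unadjusted p under 0.05, and in the paired fit of the 6 arrays 2, 0, 0 and 0 passed.

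**Figure D4:**
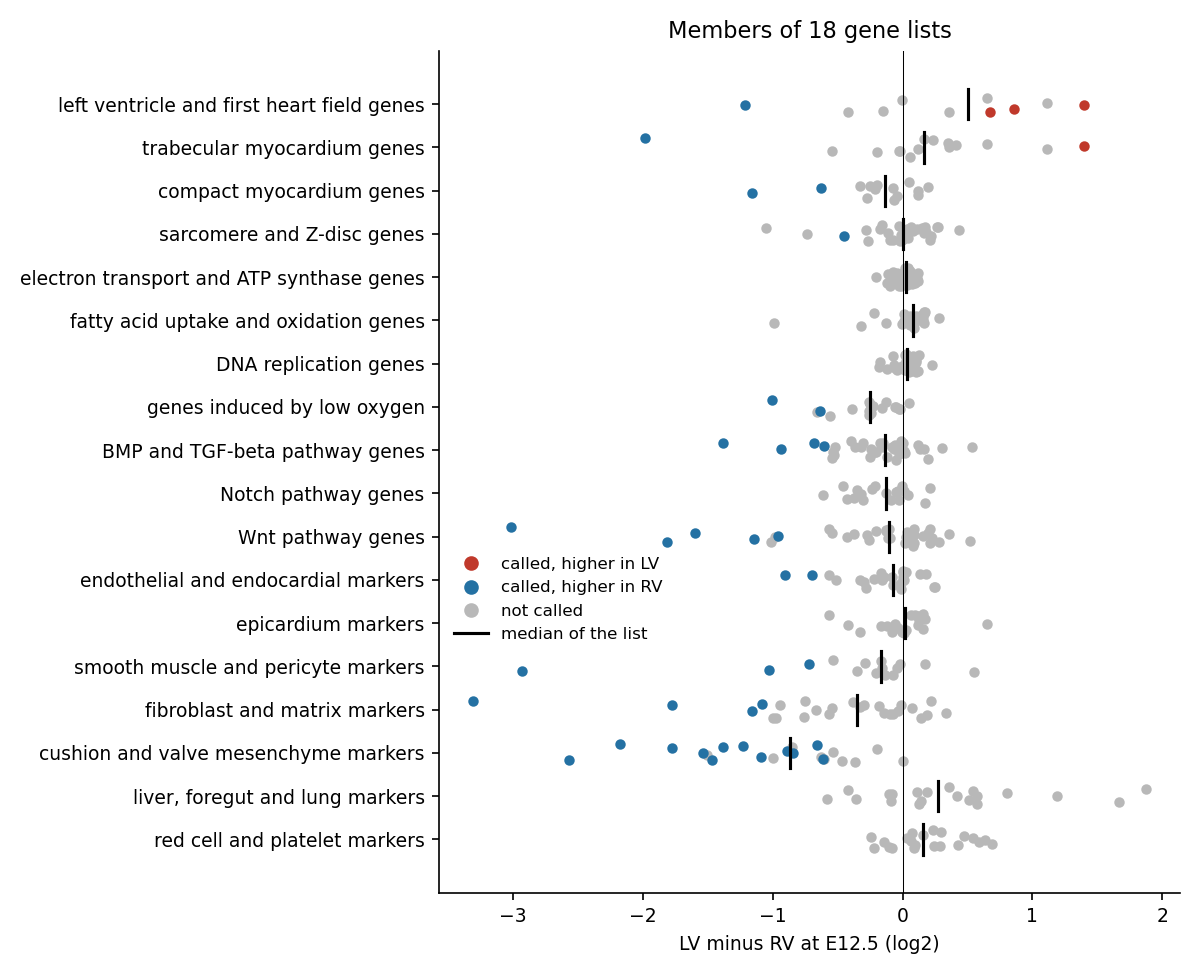
LV minus RV difference at E12.5 (log2, horizontal axis) of every measured member of 18 gene lists, one row per list, with called members coloured and the list's median as a bar. The cushion and valve mesenchyme markers lie furthest from 0 (median -0.87, 12 of 22 called higher in RV), and the genes of electron transport and DNA replication stay close to it.

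The arrays were numbered 1 to 3 in each chamber, and at E12.5 same-numbered arrays deviated alike. Over all genes, deviations from the group mean correlated at 0.271, 0.32 and 0.369 between same-numbered LV and RV arrays and at -0.0638 to -0.235 between differently numbered ones. The 3 deviations of a group cancel out, so the negative values are not separate evidence. Same-numbered arrays gave -0.119, -0.139 and 0.11 at E14.5 and -0.235, -0.156 and -0.318 at E18.5. Differently numbered arrays reached 0.266 at E18.5. With the number as a random block in the fit of all arrays, the estimated correlation within a block was 0.0145. Single genes gave examples at E12.5. The Y-linked gene Eif2s3y had 8.02, 8.02 and 7.2 in LV and 7.88, 8.34 and 7.44 in RV, and Kdm5d had 6.46, 6.2 and 5.2 in LV and 6.56, 6.3 and 5.43 in RV, so the third array was the lowest in both chambers for both genes.

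With the replicate number as a block in the fit of all arrays, 64 genes were called higher in LV and 158 higher in RV (0.353% and 0.871%). These held 63 of the 63 and 157 of the 167 genes called without it. The 2 genes called with the block and not without it were Kcnd3, the Kv4.3 channel of the transient outward current, and Prss35, a serine protease. Kcnd3 had 6.95, 6.7 and 6.25 in LV and 6.41, 6.17 and 5.65 in RV, groups that overlap although each pair differed by 0.53 to 0.6 (0.56 ± 0.16 SE, adjusted p = 0.0995, or 0.0193 with the block). Prss35 had 6.04, 6.57 and 7.36 in LV and 7.87, 7.66 and 8.0 in RV (-1.19 ± 0.32 SE, adjusted p = 0.0526, or 0.0457 with the block).

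When the spread was taken from the 6 E12.5 arrays alone, the counts were larger. Unpaired, 189 genes were called higher in LV and 387 higher in RV (1.04% and 2.13%). Paired by number, 341 were called higher in LV and 522 higher in RV (1.88% and 2.88%), among them 60 of the 63 and 160 of the 167 genes of the fit of all arrays. Nppa, with an adjusted p of 0.00558, Nppb with 0.0323 and Hand2 with 0.0416 passed in this paired fit, and 19 of the 22 cushion and valve mesenchyme markers did. Of the BMP and TGF-beta genes 1 passed higher in LV and 9 higher in RV there, of the Wnt genes 1 and 9, and of the guidance genes 5 and 6. Only 2 residual degrees of freedom stand behind it. Tnc missed the threshold there (adjusted p = 0.0505), and so did Shox2 (0.0951).

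The other stages are independent samples in which the same comparison was made. Their calls come from the same fit and share its spread per gene, so a gene with little spread is more easily called at every stage. Of the 63 genes higher in LV at E12.5, 29 were called higher in LV at E9.5, 17 at E14.5 and 8 at E18.5, that is 46%, 27% and 12.7%, against 2%, 4.24% and 2.84% of all genes. Of the 167 genes higher in RV, 57, 45 and 20 were called higher in RV at these stages, that is 34.1%, 26.9% and 12%, against 1.5%, 4.28% and 2.13%. At 3 days after birth 1 of the 167 was called the same way and in the adult 0, against 0.00551% and 0.0165% of all genes. At either age 0 of the 63 were called, as limma called 0 of all genes higher in LV there. Taken by sign alone, 15 of the 63 and 31 of the 167 had the same sign at all 6 stages.

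The genes called the same way at all 4 embryonic stages were Gtsf1 and Arhgef4 in favour of LV and Dlg2, Meis2, Pdlim3, Plppr5 and Sntb1 in favour of RV, the last 5 chosen after their values were seen. Gtsf1 differed by 2.84, 2.39, 1.5 and 1.48 from E9.5 to E18.5 and by 0.68 and 0.16 at 3 days after birth and in the adult. Arhgef4 differed by 1.41, 1.35, 0.91 and 0.57 over the embryonic stages. Pdlim3, a muscle LIM protein of the Z-disc, differed by -0.55, -1.35, -1.07 and -0.56, and Meis2, a homeobox factor, by -0.6, -0.75, -0.57 and -0.52.

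Chamber factors were set beside their values at other stages. Hand1 differed by 0.67 at E9.5 (adjusted p = 0.000642), 0.68 at E12.5 and 0.15 at E14.5 (adjusted p = 0.514), and Tbx5 by 1.41, 0.86 and 0.34, of which the first and second were called. Isl1 differed by -3.0 at E9.5, -1.34 at E12.5 and -0.29 at E14.5 (adjusted p = 0.36). Bmp4 differed by -3.05, -0.93 and -0.43, each called, and by 0.06 at E18.5 (adjusted p = 0.877). Each of these differences was nearer to 0 at E14.5 than at E12.5, though the change between these stages was not tested. The contrast of E12.5 with the mean of the other 5 stages was called for none of them, with an adjusted p of 0.171 for Hand1, 0.35 for Tbx5, 0.295 for Isl1 and 1 for Bmp4.

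A few genes were called in opposite directions at different stages, some of which were chosen after their values were seen. Spint2 differed by -0.79 at E9.5 (adjusted p = 0.00135) and by 1.09 at E12.5. Tnc differed by 0.78 at E14.5 (adjusted p = 0.0279), Aplnr by 0.7 (0.0335) and Cxcr4 by 0.67 (0.0277), all 3 of them lower in LV at E12.5. Osr1, a transcription factor of the second heart field in the mouse, differed by -1.62 at E12.5 and by 0.88 at E14.5 (adjusted p = 0.0315). Iigp1 differed by -2.78 at E12.5 and by 1.0 at E18.5 (adjusted p = 0.00628). Of the 63 genes higher in LV, 3, 1 and 1 were called the other way at E9.5, E14.5 and E18.5, and of the 167 higher in RV 1, 5 and 5. Liver markers stood over 1.5 log2 units above their replicates on 1 LV array each at E14.5 and E18.5, and their part in the differences at those stages was not tested.

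Whether a difference was particular to E12.5 was tested by setting it against the mean difference of the other 5 stages. This contrast was called for 75 of 18145 genes (0.413%), of which 61 were more negative at E12.5 and 14 more positive, and 56 of the 61 and 13 of the 14 were also called between the chambers at E12.5 itself. The contrast contains the E12.5 difference, so this overlap is partly built in. Without LV replicate 1 the contrast called 36 genes, without RV replicate 1 it called 41 and without RV replicate 2 it called 48. The largest contrasts belonged to Eln (-3.32 ± 0.41 SE, adjusted p = 6.95e-06) and Fbln5 (-3.32 ± 0.32 SE, adjusted p = 1.39e-08).

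Eln and Fbln5 were called at E12.5 and at none of the other 5 stages. Eln differed by -0.16, -3.31, 0.37, 0.3, 0.06 and -0.52 from E9.5 to the adult, and Fbln5 by 0.38, -3.38, -0.21, -0.06, -0.12 and -0.31. The arrays behind some of these means were unlike. At E14.5 the LV arrays had 7.916, 9.604 and 9.894 for Eln and 7.235, 8.449 and 9.222 for Fbln5. In the adult, Eln had 7.346, 9.48 and 7.648 in RV. Adult RV replicate 2 stood 1.517 above its replicates in fibroblast and matrix markers. The part of these arrays in the small differences was not tested. Rgs5 differed by -1.8 at E9.5 (adjusted p = 3.02e-12), by -2.93 at E12.5 and by at most 0.22 in size at the later stages. In the other direction, Chn2 differed by -0.11 at E9.5, 1.72 at E12.5 and 1.68 at E14.5 (adjusted p = 1.49e-07), and its contrast with the other stages was 1.32 ± 0.19 SE (adjusted p = 9.76e-05).

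**Figure D5:**
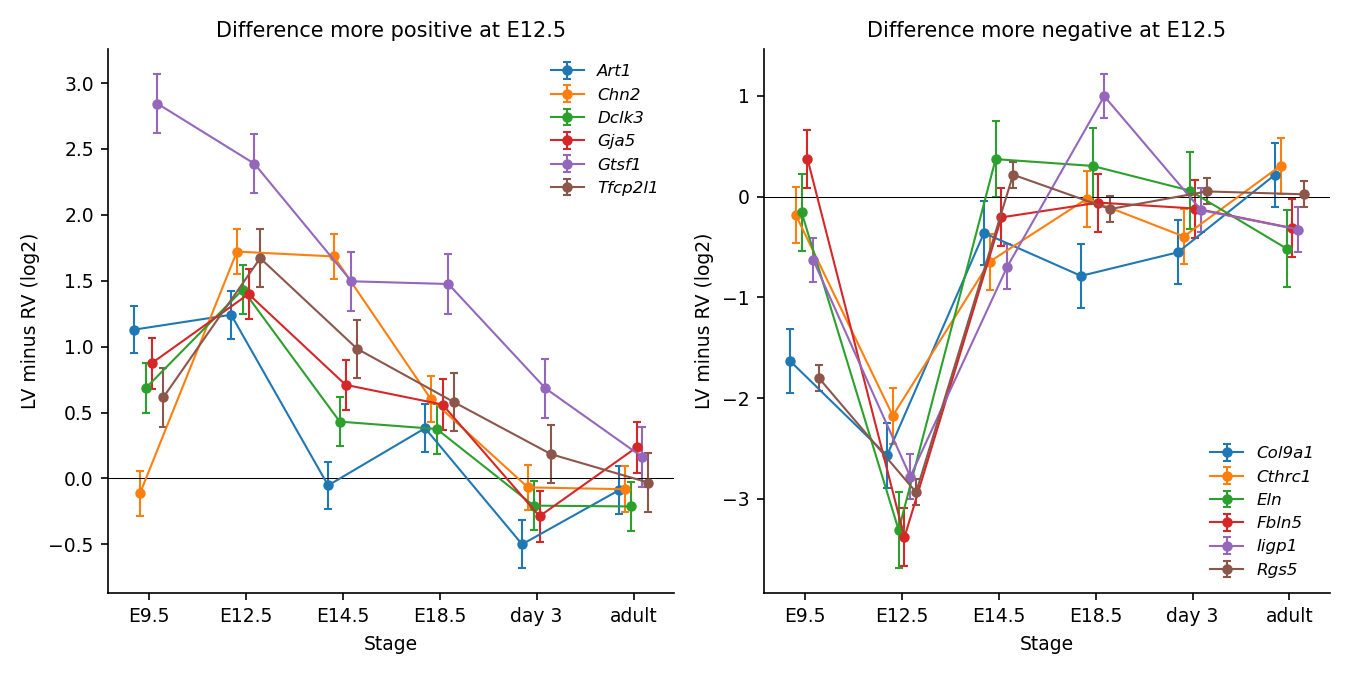
LV minus RV difference (log2, vertical axis, bars for ± SE of the limma fit) at the 6 stages from E9.5 to the adult, for the 6 genes per direction with the largest called contrast of E12.5 against the other stages. Eln and Fbln5 lie near -3.3 at E12.5 and within 0.6 of 0 elsewhere, while Gtsf1 is highest at E9.5 (2.84), with 2.39 at E12.5 and 0.16 in the adult.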

How the data were processed

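Each of 45 arrays carried 1 sample, and the authors deposited log2 values per probe set from RMA, per the submitters' processing notes (no version given). This method corrects background, gives all arrays 1 distribution by quantiles and combines the probes of a set. RMA removes a change shared by most genes and compresses differences near background. Labelled cRNA was made from 100 ng of total RNA, per the labels' protocols. Values ran from 2.066 to 15.183, array medians from 5.353 to 5.467, and 0 pairs of arrays were identical. No detection calls were used.

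Of 45101 probe sets (64 controls), 34945 had 1 gene symbol in the platform annotation, 932 several and 9224 none, and 34884 matched RefSeq names (GRCm38.p6). Where several probe sets named 1 of the 18145 genes (8998 genes), the one with the highest mean over all arrays stood for it. Of the genes in 43 lists, 807 were measured and 58 were not analysed here.

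The main test was a limma 3.58.1 contrast (R 4.3.3, lmFit, eBayes, two-sided) in a fit of 15 groups with 30 residual degrees of freedom, with Benjamini-Hochberg adjustment over all genes at 0.05. All other stages used this fit. Alternatives took the replicate number as a block, took the 6 E12.5 arrays alone or the ventricle arrays alone, left out arrays, and changed the prior, the filter, the probe set rule, the scaling and the threshold. No label states that same-numbered ventricles came from the same hearts. The pairing comes from the data, since all 3 same-numbered correlations at E12.5 (0.271, 0.32 and 0.369) were over 0.1. At E14.5 and E18.5 not all 3 were, so the pairing at E12.5 remains an assumption. Tables and plots used Python 3.11.15, pandas 2.3.3, NumPy 2.4.6 and Matplotlib 3.10.9.

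Genes named are up to 15 called per direction by size of difference without overlap, up to 5 called per list, those called with the block alone, up to 6 per direction in the contrast with other stages, and 12 fixed genes. Outside lists, the rule skipped predicted genes, probe sets of several genes and chemosensory receptors. The members and lists were chosen with earlier results of these data known. Uncalled list members, Hey2, Bmper and Alb, and the called genes Sox9, Twist1, Msx1, Msx2, Scx, Osr1, Dlg2, Meis2, Pdlim3, Plppr5 and Sntb1, were chosen after their values were seen.

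In simulated data with 200 of 18145 genes changed, the unpaired fit recovered 44.8%, 91% and 100% of changes of 0.5, 1 and 2 (log2), with 6 of 163 calls false. The block fit recovered 47.8%, 92.5% and 100% (10 of 170 false), and the paired fit of 6 arrays 2.99%, 74.6% and 97% (4 of 120 false). Each simulated gene had 1 normal spread in all groups, plus a shared effect of same-numbered E12.5 arrays (0.5 of its variance). The paired fit there called fewer genes than the unpaired fit, 120 against 163. On the real arrays the paired fit called more, 341 and 522 against 63 and 167. The simulated shares need not hold for the real fits. Replicates are described as biological. In the main fit, p-values rest on the spread between samples within all 15 groups, not on that of the pooled E12.5 samples alone.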

Additional observations from a re-analysis of the deposited data

Results flagged for a closer look

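For 33 of the genes named, the difference between the ventricles at E12.5 departed from the mean of the same difference at the other 5 stages, by a limma contrast over all genes (adjusted p under 0.05, called for 0.413% of genes). Many named genes were chosen for their E12.5 difference, which the contrast contains, and some for the contrast itself. The count of 33 is therefore raised by that choice and only describes these genes. Values are the E12.5 difference minus that mean, on the log2 scale.

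Among matrix and mesenchyme genes the contrast was -3.32 for Eln, -3.32 for Fbln5, -1.99 for Cthrc1 and -1.95 for Col9a1. It was -1.82 for Aspn, -1.27 for Prrx1, -1.18 for Has2 and -1.09 for Fbln2. Genes of vessel cells gave -2.61 for Rgs5, -1.11 for Actg2, -0.98 for Aplnr, -0.96 for Cxcr4 and -0.75 for Sox17. All 13 were more negative at E12.5 than in the mean of the other stages.

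Among signalling and guidance genes the contrast was -1.14 for Sema3c, -0.86 for Pcsk6, -0.73 for Fzd1 and -0.61 for Id3. Of the genes induced by low oxygen, Egln3 gave -0.84 and Slc2a1 -0.64. The remaining negative contrasts were -2.62 for Iigp1, -1.64 for Tnni2, -1.45 for Stmn2, -1.36 for Nt5e and -1.22 for Meox1.

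More positive at E12.5 were Chn2 at 1.32, Dclk3 at 1.22, Tfcp2l1 at 1.21, Art1 at 1.07 and Gtsf1 at 1.06. Gja5 stood at 0.98, Sox3 at 0.95, Adamdec1 at 0.89 and Spint2 at 0.89. Gtsf1 had a still larger difference at E9.5 than at E12.5, so a contrast with the mean of the other stages does not show that E12.5 holds the extreme value.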

How the results depend on the processing

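The counts of genes higher in LV and higher in RV, 63 and 167, lay within 1.5 times of these values with the replicate block, a trended and robust prior, a filter on dim genes, other ways to combine probe sets, the 36 ventricle arrays alone, a random block, a 1.5-fold minimum and without arrays with markers of another tissue. Scaling to the housekeeping genes gave 74 and 149. The replicate block within E12.5 gave 64 and 158. In another fit, with a replicate block within every ventricle stage, the contrast with the other stages was called for 92 genes in place of 75. The 6 E12.5 arrays alone gave 189 and 387, and with the replicate block 341 and 522. At an adjusted p under 0.01 there were 37, 101 and, for the contrast, 41. Without arrays with markers of another tissue, none of them at E12.5, the contrast gave 116. Leaving out each E12.5 array in turn gave 35 to 48 genes higher in LV, 94 to 124 higher in RV, and 36 to 57 for the contrast. The cause of these shifts was not tested, beyond fewer arrays in the last. Of 66 called genes refitted without single arrays, 20 lost the call without 1 array, 17 of them without LV replicate 1. Sox9, Twist1, Msx1, Msx2, Scx, Osr1, Dlg2, Meis2, Pdlim3, Plppr5 and Sntb1 were outside these 66 genes. Whether their calls hold without single arrays was not examined. Signs reversed for Myl2, at 0.0123 with housekeeping scaling, and for Tpm2, at 0.0593 with the most variable probe set. Among the 66 genes, 0 had a probe set called in the other direction, but for some only 1 of several probe sets was called. Genes near background were tested with the rest, and the filter on dim genes left 11155.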
